A study of Mus musculus with 6 samples.

Results

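The BCL2 family decides whether the outer membrane of the mitochondrion stays intact or is permeabilised. The effectors Bax and Bak1 form pores in that membrane, the BH3-only proteins activate the effectors or occupy their inhibitors, and the anti-apoptotic proteins hold both in check. Once the membrane is open, cytochrome c reaches the cytosol and caspases are activated. Early embryonic and pluripotent cells are known to stand close to this threshold and to rely on Mcl1 and Bcl2l1 for survival. Many members are controlled by cleavage, phosphorylation or protein turnover, which mRNA levels do not show.

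The 10 genes described here were chosen by name from this family, by a rule that uses no measured value, though with earlier results of these data known, out of 50686 gene identifiers in the count tables. They comprise 7 pro-apoptotic genes and 3 anti-apoptotic genes. The pro-apoptotic set holds the 2 effectors Bax and Bak1 and the 5 BH3-only genes Bbc3, Pmaip1, Bcl2l11, Bid and Bad. The anti-apoptotic set holds Bcl2, Bcl2l1 and Mcl1. All 10 members were counted in all 6 samples and passed the filter on low counts, as did 16729 genes in total.

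The RNA came from embryoid bodies of iPSCs (induced pluripotent stem cells) that had been reprogrammed from mouse gingival fibroblasts. Both groups had been grown on SNL feeder cells, freed of feeders by selective trypsinisation, formed into embryoid bodies, exposed to all-trans retinoic acid and attached to gelatin-coated plates. The 3 ICF samples then received intermittent compressive force at 1.5 g per square centimetre and 0.23 Hz for 24 h in serum-free medium, and the 3 Control samples were left unloaded. The labels number the samples of each group as donors 1 to 3, called replicates here, while the study describes independent experiments, so that p-values measure the spread between these samples. No transgene or mutant allele distinguished the groups, and the labels give neither the strain nor the age of the source animals.

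The reads counted on genes numbered 28711166 to 34194413 in a sample. ICF replicate 3 stood apart, since 89.0% of its nonzero counts could be divided by 4 without remainder (20.3% to 21.5% elsewhere) and 20802 genes had a count in it (24340 to 24889 elsewhere). The count of 9 of the 10 members in that sample could be divided in that way too, with Bax the exception. Values without ICF replicate 3 are given where they change a call or a direction. The pluripotency genes Pou5f1, Sox2, Nanog, Zfp42, Lin28a, Dppa5a, Utf1 and Tdgf1 summed to 3351 to 4043 CPM (counts scaled to the size of the library) in Control and 3031 to 3342 with ICF. The mesenchymal genes Pdgfra, Twist1, Prrx1, Vim, Col1a1 and Col3a1 summed to 355.6 to 399 CPM in Control and 409 to 429 with ICF. Thus the cells, which the protocol steers towards immature mesenchyme, still carried the pluripotency transcripts at a high level.

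Stretches of RefSeq promoter sequence are shown for the 3 members whose windows held 1 of 2 searched motifs, since both motifs belong to factors known to drive pro-apoptotic members. RefSeq windows ran from 250 bases before to 50 bases after an annotated start on GRCm38. They were matched by symbol for 9 of the 10 members, with 15 windows among 32851. Pmaip1 was the member without a window, so it was not searched for either motif. The FoxO motif GTAAACA, searched on both strands, was present in 3.65% of all windows and in 2 of the 15 member windows (13.3%). The p53 decamer, which reads alike on both strands, was present in 8.36% of all windows and in 1 of the 15 member windows. Each line gives 120 bases in the direction of transcription, beginning 250 bases before the start, with the motif in capitals. The Bbc3 motif is the reverse complement of GTAAACA, and its window, 1 of 3 for the gene, lies within the annotated bounds of the gene. The stretches of Bax and Bcl2l11 lie upstream of the gene.
Bax, chr7:45467029-45467148, minus strand, p53 decamer: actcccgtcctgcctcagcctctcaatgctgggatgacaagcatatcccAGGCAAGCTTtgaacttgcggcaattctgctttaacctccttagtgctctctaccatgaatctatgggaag
Bcl2l11, chr2:128125788-128125907, plus strand, FoxO motif: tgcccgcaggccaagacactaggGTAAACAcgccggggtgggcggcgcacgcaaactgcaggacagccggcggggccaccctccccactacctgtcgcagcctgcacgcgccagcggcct
Bbc3, chr7:16310011-16310130, plus strand, FoxO motif: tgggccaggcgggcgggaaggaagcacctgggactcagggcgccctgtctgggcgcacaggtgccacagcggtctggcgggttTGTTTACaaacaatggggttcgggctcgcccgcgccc
Counted from the start, with upstream bases negative, the motif began at position -201 in Bax, -227 in Bcl2l11 and -167 in Bbc3. The member windows were richer in CpG dinucleotides than windows in general, with a median of 27 per window against 7. A match is a description of the letters in the window and does not show that a factor bound there.

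The question of the design was which genes respond to ICF, and for this family whether the pro-apoptotic and the anti-apoptotic transcripts moved alike. Pmaip1, which encodes the BH3-only protein Noxa, was the 1 member of 10 that passed the test (edgeR's quasi-likelihood test with Benjamini-Hochberg adjustment over all genes tested, threshold 0.05), and it was higher with ICF. No member was called lower. At an unadjusted p under 0.05, 2 members were higher, Pmaip1 and Bbc3, and 0 were lower, against 12.4% and 13.2% of all genes. By the adjusted p, 3.47% of all genes were called higher and 4.38% lower. A count of 1 rests on a single gene and does not describe the family. With the replicate number as a block, which takes out what samples of the same number share, 4 members were called higher, namely Pmaip1, Bbc3, Bak1 and Bid, against 14.6% of all genes, and 0 were called lower, against 15.3% of all genes. DESeq2 called 2 members higher, Pmaip1 and Bbc3, against 6.38% of all genes, and 0 lower, against 7.5% of all genes. With the block in DESeq2, 3 members were called higher, Pmaip1, Bbc3 and Bak1, against 10.1% of all genes, and 0 lower, against 11.5% of all genes. The median log2 fold change was 0.24 over the 7 pro-apoptotic members, 0.03 over the 3 anti-apoptotic members and 0.00264 over all genes tested. The log2 fold change was above 0 for 7 of 7 pro-apoptotic members, 2 of 3 anti-apoptotic members and 50.4% of all genes. Among these, Bax (0.03), Bcl2l11 (0.06) and Bcl2l1 (0.03) lay near 0 and changed sign in some fits with 1 sample left out. Of 4 further pro-apoptotic genes of the family, described below, 1 was above 0.

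**Figure D1:**
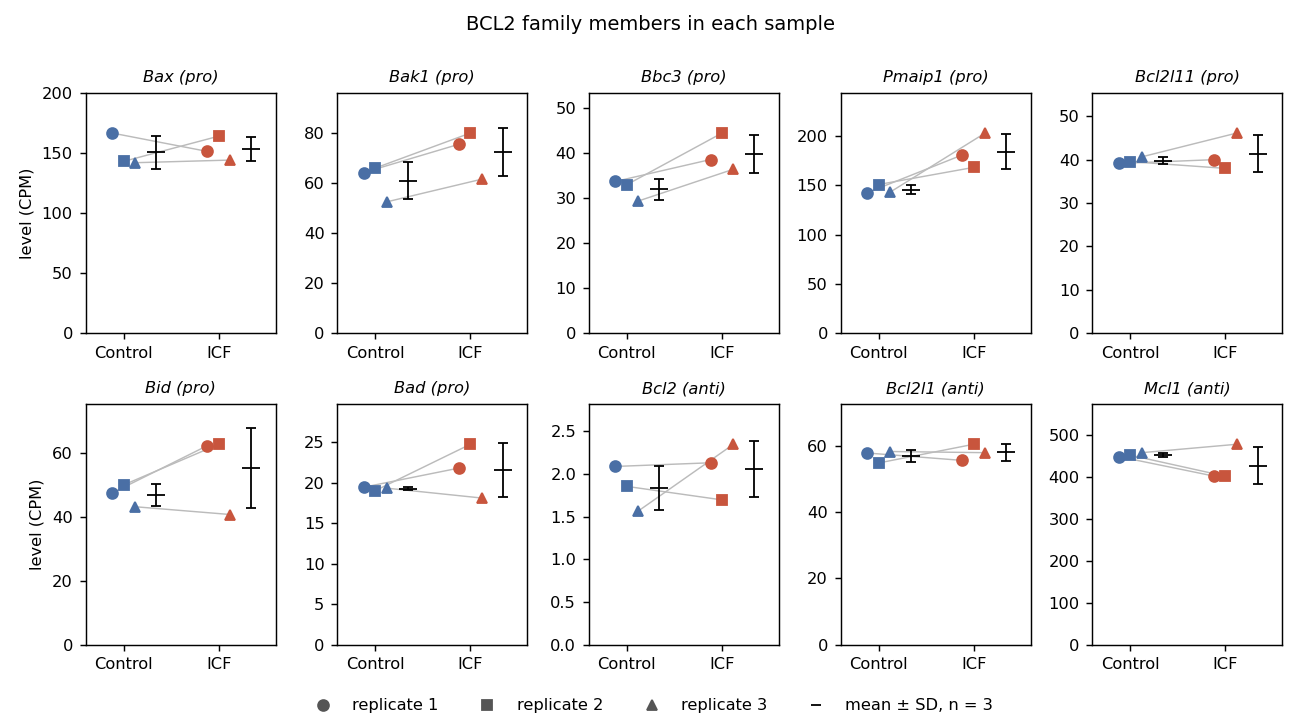
The level of each of the 10 members (CPM, vertical axes starting at 0) in the Control and ICF samples, with 1 marker per sample, grey lines joining samples of the same replicate number, and bars giving the mean ± SD of 3 samples. In the Pmaip1 and Bbc3 panels all 3 ICF samples lie above all 3 Control samples, and in the other 8 panels the groups overlap.

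Pmaip1 lies on chromosome 18, and its product Noxa binds Mcl1 with high preference. Its level was 142.5, 151 and 143 CPM in Control replicates 1, 2 and 3 and 181, 168 and 203 CPM in the ICF samples. Every ICF sample stood above every Control sample, with the highest level in ICF replicate 3. The means were 145 ± 4.64 CPM (SD, n = 3) and 184.0 ± 17.6 CPM (SD, n = 3), which on the log2 scale was a rise of 0.34 with a standard error (SE, from the spread of log2 CPM) of 0.08 (adjusted p = 0.032, edgeR). The adjusted p was 1.3e-05 with the block and 0.003 with DESeq2. The call was lost without Control replicate 1 (adjusted p = 0.13), Control replicate 2 (0.11), Control replicate 3 (0.052) or ICF replicate 1 (0.09), all with edgeR and with log2 fold changes of 0.32 to 0.37. Without ICF replicate 3 the log2 fold change was 0.27 and the call was kept (adjusted p = 0.032, edgeR). As with all genes in these bulk samples, a higher level in each cell and a larger share of cells with that transcript cannot be told apart.

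Bbc3 encodes Puma, a BH3-only protein that binds all the main anti-apoptotic members, and lies on chromosome 7 from 16308393 to 16318205 (plus strand). It was at 33.7, 33.0 and 29.4 CPM in Control and at 38.6, 44.5 and 36.45 CPM with ICF. The groups did not overlap, and replicate 3 was the lowest sample of each group. The means were 32.05 ± 2.33 CPM (SD, n = 3) and 39.85 ± 4.16 CPM (SD, n = 3), that is a log2 fold change of 0.31 (SE 0.11). This missed the threshold in the unblocked fit (adjusted p = 0.078, edgeR) and passed it with the block (adjusted p = 0.00054), with DESeq2 (adjusted p = 0.037) and without ICF replicate 3 (log2 fold change 0.38, adjusted p = 0.036, edgeR). Separation of this kind, all ICF samples above all Control samples, was seen for 2 of 10 members and for 15.6% of all genes tested. The opposite order was seen for 0 members and for 15.7% of all genes. An exact two-sided permutation test on 3 against 3 samples cannot go below 0.1, the value of both Bbc3 and Pmaip1, and gave 0.3 for Bak1 and 0.7 for Bax.

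Among the effectors, Bak1 (chromosome 17, 27019810 to 27029009, minus strand) encodes a protein that resides in the outer membrane, held there by Mcl1 and Bcl2l1. It was at 64.1, 65.9 and 52.4 CPM in Control and at 75.4, 79.8 and 61.4 CPM with ICF. Replicate 3 was the lowest in both groups, so that ICF replicate 3 fell below Control replicates 1 and 2 and the groups overlapped. Within pairs of the same replicate number, however, Bak1 was higher with ICF in 3 of 3, by 0.23, 0.28 and 0.23 on the log2 scale. The means were 60.8 ± 7.32 and 72.2 ± 9.59 CPM (SD, n = 3 each), that is a log2 fold change of 0.25 (SE 0.15). The adjusted p was 0.22 in the unblocked edgeR fit, 0.00087 with the block and 0.0033 with the block in DESeq2. With 1 sample left out the log2 fold change ranged from 0.15 to 0.36 and was not called in any of the 6 fits.

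Bax (chromosome 7, 45461697 to 45466898, minus strand) encodes the effector that shuttles between cytosol and mitochondrion, and it showed no such pattern. Its level was 167, 143 and 142 CPM in Control and 151, 164 and 144 CPM with ICF. The highest of the 6 values was Control replicate 1, and the pairs differed by -0.14, 0.20 and 0.02 on the log2 scale. The means were 150.6 ± 13.95 and 153 ± 10.1 CPM (SD, n = 3 each), that is a log2 fold change of 0.03 (SE 0.09, adjusted p = 0.88 without and 0.75 with the block, edgeR). The p53 decamer shown above lies in the promoter window of this gene.

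Bid (chromosome 6, 120891930 to 120916853, minus strand) encodes the BH3-only protein that caspase-8 cleaves to link death receptors to mitochondria. It was at 47.5, 49.99 and 43.2 CPM in Control and at 62.3, 62.7 and 40.7 CPM with ICF. ICF replicates 1 and 2 were above all Control samples, whereas ICF replicate 3 was below all of them. The means were 46.9 ± 3.45 and 55.3 ± 12.6 CPM (SD, n = 3 each), that is a log2 fold change of 0.24 (SE 0.22). The adjusted p was 0.37 in the unblocked edgeR fit and 0.015 with the block, while DESeq2 with the block gave 0.088. The value moved with the ICF samples, to a log2 fold change of 0.42 without ICF replicate 3 (adjusted p = 0.012), 0.15 without ICF replicate 1 (0.66) and 0.14 without ICF replicate 2 (0.64, all edgeR).

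Bad (chromosome 19, 6941861 to 6951899, plus strand), the BH3-only protein silenced by survival-factor phosphorylation, was at 19.4, 19.0 and 19.3 CPM in Control. With ICF it was at 21.8, 24.7 and 18.1 CPM, again with replicate 3 below all Control samples. The log2 fold change was 0.16 (SE 0.13, adjusted p = 0.41 without and 0.16 with the block, edgeR), with 0.0579 left without ICF replicate 2 and 0.28 without ICF replicate 3, neither of them called. Bcl2l11 (chromosome 2, 128126038 to 128162547, plus strand) encodes Bim, a BH3-only protein that FoxO factors are known to induce. It was at 39.1, 39.5 and 40.6 CPM in Control and at 40.0, 38.0 and 46.1 CPM with ICF, so that only ICF replicate 3 stood apart from the other samples. Its log2 fold change was 0.06 (SE 0.09, adjusted p = 0.72, edgeR) and became -0.02 without ICF replicate 3.

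Mcl1 (chromosome 3, 95658788 to 95663176, plus strand) encodes a short-lived anti-apoptotic protein that binds Noxa, Puma and Bak1. Its level was 449, 452 and 458 CPM in Control and 402, 402 and 478 CPM with ICF. The Control samples lay close together, while ICF replicates 1 and 2 were below all of them and ICF replicate 3 above all of them. The means were 453 ± 4.72 and 427 ± 43.9 CPM (SD, n = 3 each), that is a log2 fold change of -0.08 (SE 0.08, adjusted p = 0.54 without and 0.2 with the block, edgeR). Without replicate 3 of both groups, an alternative chosen after the data were seen, Mcl1 was called lower (log2 fold change -0.16, adjusted p = 0.01, edgeR).

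Bcl2l1 (chromosome 2, 152780668 to 152831728, minus strand), which encodes Bcl-xL, was at 57.9, 54.9 and 58.3 CPM in Control and at 55.65, 60.5 and 58.0 CPM with ICF. These 6 values were the most even of the members in CPM, and the log2 fold change was 0.03 (SE 0.04, adjusted p = 0.84, edgeR). Bcl2 (chromosome 1, 106538178 to 106714274, minus strand), the founding member of the family, was low, at 2.09, 1.85 and 1.565 CPM in Control and 2.13, 1.695 and 2.35 CPM with ICF. Only 45 to 74 reads per sample were counted for these levels, with a counting error of 11.6% to 14.9% if each count is a separate read. In ICF replicate 3 the count of 68 could be divided by 4, so fewer separate reads may stand behind it. The log2 fold change of Bcl2 was 0.16 (SE 0.18, adjusted p = 0.67, edgeR), so that the difference was smaller than its SE. Bad, at the same rounded log2 fold change but with 524 to 817 reads per sample, was not called either.

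**Figure D2:**
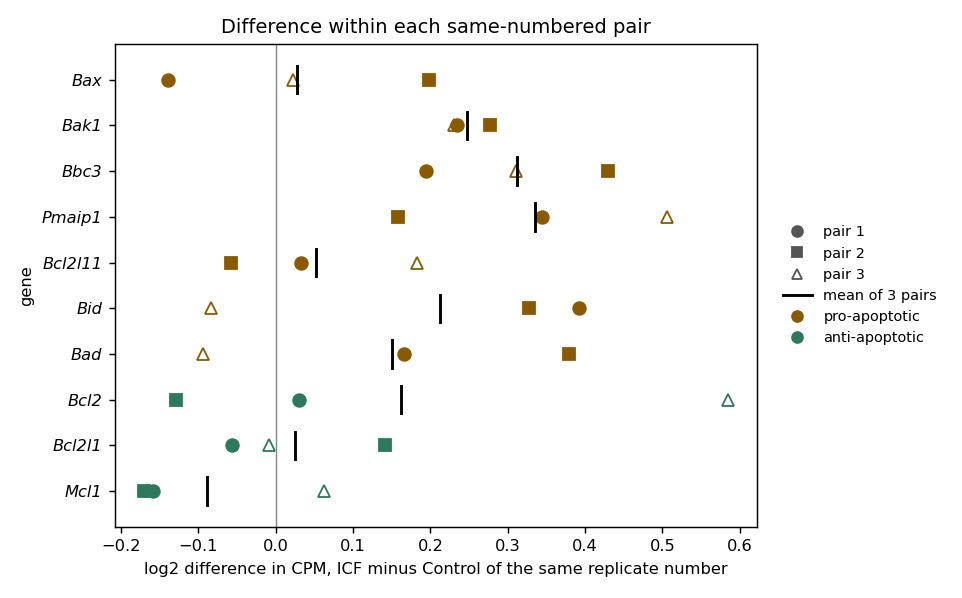
The log2 difference in CPM between the ICF and the Control sample of the same replicate number (horizontal axis) for each member (vertical axis), with 1 marker per pair, open for pair 3, and a bar at the mean of the 3 pairs. Bak1, Bbc3 and Pmaip1 lie to the right of 0 in all 3 pairs, and pair 3 lies on the other side of 0 from pairs 1 and 2 for Bid, Bad and Mcl1.

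Seen by pair, 7 of 10 members were higher with ICF in each of the 3 pairs, though not the same members each time. These were 6, 6 and 5 of the pro-apoptotic members and 1, 1 and 2 of the anti-apoptotic members in pairs 1, 2 and 3. The share of all genes higher within a single pair was not calculated. The same direction in all 3 pairs was seen upwards for 3 members (Bak1, Bbc3 and Pmaip1), against 28.3% of all genes, and downwards for 0 members, against 28.3% of all genes. Pair 3 went against the other pairs in Bid, Bad and Mcl1, and it held the largest differences of Bcl2, Bcl2l11 and Pmaip1. Without replicate 3 of both groups 5 members were called higher (Bad, Bak1, Bbc3, Bid and Pmaip1) and 1 lower (Mcl1), against 14.6% and 15.6% of all genes (edgeR). Without ICF replicate 3 alone 3 members were called higher (Bbc3, Bid and Pmaip1) and 0 lower, against 3.73% and 4.52% of all genes.

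Levels can be compared between genes only per length, for which TPM (a level corrected for gene length and depth, from the summed exon length of each gene) was used. In Control, Mcl1 was the most abundant member at 435 ± 15.5 TPM, followed by Bax at 313 ± 22.5, Pmaip1 at 175 ± 6.9 and Bak1 at 82.8 ± 8.42 (SD, n = 3 each). A middle group held Bbc3 at 49.5 ± 2.47, Bid at 43.3 ± 2.59 and Bcl2l1 at 40.8 ± 1.87 TPM. Bad at 24.7 ± 0.63, Bcl2l11 at 16.3 ± 0.73 and Bcl2 at 0.66 ± 0.08 TPM came last. Only Bid and Bcl2l1 were neighbours whose Control ranges overlapped. Mcl1 alone made up 91.3% of the summed TPM of the 3 anti-apoptotic members in Control, and its level per length was 663 times that of Bcl2. The transcripts of these 3 members were thus largely those of Mcl1. Bax and Pmaip1 together made up 69.3% of the summed pro-apoptotic TPM.

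**Figure D3:**
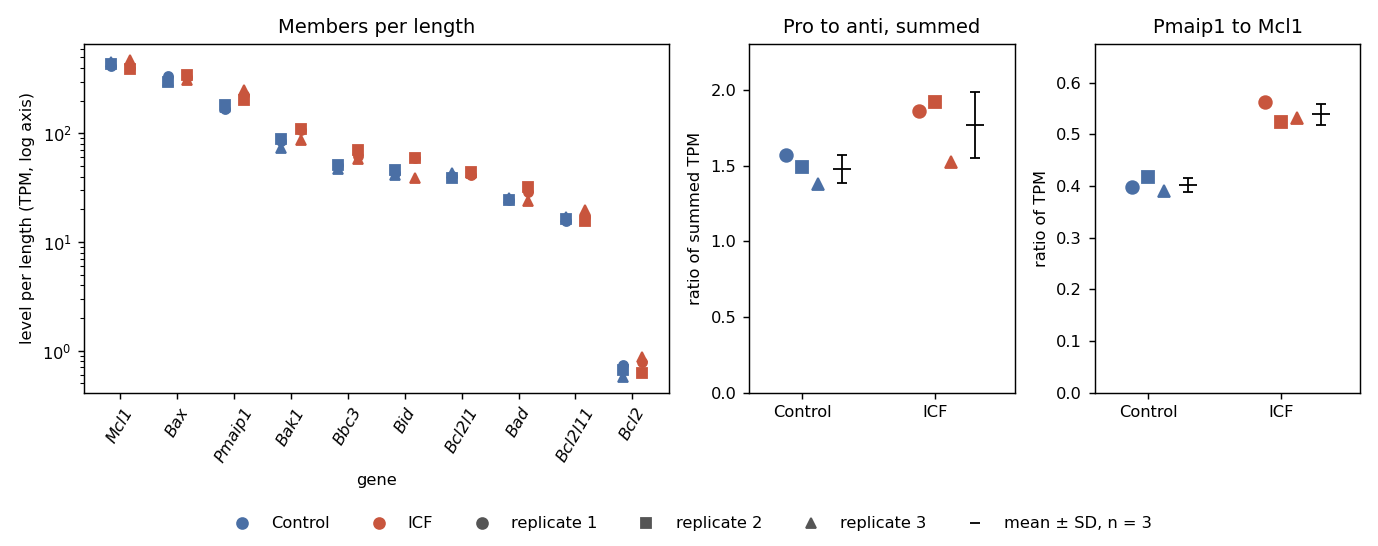
Left, TPM of each member on a log axis, ordered by the Control mean, with 1 marker per sample. Middle and right, the ratio of summed pro-apoptotic to summed anti-apoptotic TPM and the ratio of Pmaip1 to Mcl1 TPM in each sample, on axes from 0 with the mean ± SD of 3 samples; the ICF samples lie above all Control samples for Pmaip1 to Mcl1, whereas ICF replicate 3, at 1.52, lies within the Control range of the summed ratio.

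The pro-apoptotic and anti-apoptotic members were then set against each other in each sample, as a description without a test. The summed pro-apoptotic TPM was 725, 705 and 683 in Control and 828, 839 and 791 with ICF. The groups did not overlap, with means of 704.5 ± 20.9 and 819 ± 25.0 (SD, n = 3 each). The summed anti-apoptotic TPM was 462, 473 and 495 in Control and 443, 436 and 519 with ICF, which overlapped and again placed ICF replicate 3 highest. The ratio of the sums was 1.57, 1.49 and 1.38 in Control and 1.87, 1.92 and 1.52 with ICF. It was higher with ICF in 3 of 3 pairs, although ICF replicate 3 lay below Control replicate 1, and the mean ratio was 1.48 ± 0.10 in Control and 1.77 ± 0.22 with ICF (SD, n = 3 each). On the log2 scale the ratio differed by 0.25, and by 0.19 to 0.36 when each sample was left out in turn. Calculated from CPM in place of TPM, which weights long transcripts more, the ratio was 0.97 ± 0.05 and 1.17 ± 0.13 (SD, n = 3 each) without overlap.

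Ratios of known binding partners were formed in the same manner. Pmaip1 to Mcl1 stood at 0.40, 0.42 and 0.39 in Control and at 0.56, 0.52 and 0.53 with ICF, in TPM. All ICF samples were above all Control samples, replicate 3 included, with means of 0.40 ± 0.01 and 0.54 ± 0.02 (SD, n = 3 each). Bbc3 to Bcl2l1 was 1.26, 1.30 and 1.09 in Control and 1.50, 1.59 and 1.36 with ICF, also without overlap. The numerators, Pmaip1 and Bbc3, separated the groups on their own, so these ratios are not a separate result. The share of other gene pairs whose ratio separates the groups was not calculated. Bak1 to Mcl1 was 0.19 ± 0.02 in Control and 0.24 ± 0.05 with ICF (SD, n = 3 each), overlapping between the groups but higher with ICF in 3 of 3 pairs. The ratio of Bax to Bcl2l1 was 7.68 in both groups (SD 0.65 in Control and 0.38 with ICF, n = 3 each). The often quoted ratio of Bax to Bcl2 was 480 ± 41.4 in Control and 444 ± 106 with ICF (SD, n = 3 each), where the scarcity of Bcl2 reads limits its precision.

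The remaining genes of the family were examined as lists. Of 4 further pro-apoptotic genes, all tested, Bmf was called lower and none higher, and their median log2 fold change was -0.10. Bmf, a BH3-only gene whose product is tethered to the cytoskeleton in healthy cells, was at 21.6, 24.15 and 21.4 CPM in Control and at 17.3, 16.3 and 16.7 CPM with ICF. The groups did not overlap, and the log2 fold change was -0.42 (SE 0.06, adjusted p = 0.023 without and 0.00014 with the block, edgeR). Bmf thus moved in the direction opposite to that of Pmaip1. Its call was lost without Control replicate 1 (adjusted p = 0.083), Control replicate 2 (0.13), ICF replicate 1 (0.078) or ICF replicate 2 (0.084). Bok, an effector-like gene, and the BH3-only genes Bik and Hrk had log2 fold changes of -0.04, -0.15 and 0.07 (adjusted p = 0.88, 0.76 and 0.82, edgeR). Of 5 further anti-apoptotic genes only Bcl2l2, which encodes Bcl-w, passed the filter, with 23.65 ± 1.49 CPM in Control and 26.0 ± 2.05 CPM with ICF (SD, n = 3 each, log2 fold change 0.13, adjusted p = 0.38, edgeR). Bcl2l10 had at most 4 reads and Bcl2a1a, Bcl2a1b and Bcl2a1d at most 1 read in any sample.

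Downstream of the mitochondrion, 14 genes are described (Cycs, Diablo, Htra2, Aifm1, Endog, Apaf1, Casp9, Casp6, Xiap, Birc2, Birc3, Birc5, Vdac1 and Vdac2). All 14 were tested, 0 were called in either direction with edgeR, and their median log2 fold change was -0.09. At an unadjusted p under 0.05, 1 was higher and 4 were lower, against 12.4% and 13.2% of all genes. Apaf1, the scaffold of the apoptosome on which caspase-9 is activated, was at 66.4, 68.8 and 80.7 CPM in Control and at 87.5, 81.2 and 99.97 CPM with ICF. All ICF samples stood above all Control samples, although ICF replicate 2 and Control replicate 3 lay close together. The log2 fold change was 0.32 (SE 0.12), which missed the threshold in the unblocked edgeR fit (adjusted p = 0.087) and passed it with the block (adjusted p = 3e-05), with DESeq2 (adjusted p = 0.041) and without Control replicate 3 (adjusted p = 0.034). Apaf1 was the 1 gene of the 14 called higher with the block and with DESeq2, against 14.6% and 6.38% of all genes. With the block 4 were called lower, against 15.3% of all genes. These were the caspases Casp6 (adjusted p = 0.045) and Casp9 (0.02), the inhibitor Birc2 (0.0077) and the mitochondrial channel Vdac1 (0.025, all edgeR). With the block in DESeq2, 2 were called lower, Birc2 and Vdac1, against 11.5% of all genes. Without ICF replicate 3, Birc2 was the 1 gene called lower and 0 were called higher, against 4.52% and 3.73% of all genes (edgeR).

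Of 18 regulators of the family, 17 were tested. Of these, 1 was called higher and 1 lower, against 3.47% and 4.38% of all genes (edgeR). Trp53, which encodes p53, had a level of 457, 439.9 and 415 CPM in Control and 455, 473 and 414.5 CPM with ICF, with overlapping groups (log2 fold change 0.03, adjusted p = 0.8, edgeR). Its relative Trp73 was at 2.43, 2.68 and 4.03 CPM in Control and at 7.92, 9.11 and 11.9 CPM with ICF (log2 fold change 1.66, standard error 0.28, adjusted p = 0.0041, edgeR), and was the 1 regulator called higher. Mapk8, which encodes the kinase JNK1 that phosphorylates several members, was the 1 called lower, from 55.5 ± 0.58 to 43.4 ± 0.38 CPM (SD, n = 3 each, log2 fold change -0.36, standard error 0.01, adjusted p = 0.0098, edgeR). The call of Mapk8 was lost without Control replicate 1 (adjusted p = 0.052), Control replicate 2 (0.073) or ICF replicate 1 (0.056). With the block 2 regulators were called higher and 5 lower, against 14.6% and 15.3% of all genes. Higher were Trp73 (adjusted p = 3.3e-12) and Usp9x (0.0013), a deubiquitinase that stabilises Mcl1. Lower were Atf4 (0.012), Casp8 (0.049), E2f1 (0.025), Mapk3 (0.00017) and Mapk8 (2.1e-05, all edgeR). DESeq2 with the block called 2 higher and 3 lower, against 10.1% and 11.5% of all genes, without Casp8 (adjusted p = 0.21) and E2f1 (0.076). The log2 fold change of Casp8, which encodes the caspase that cleaves Bid, was -0.37 in the unblocked edgeR fit and -0.15 without ICF replicate 3 (adjusted p = 0.31 and 0.52), and that of Usp9x was 0.21 and 0.07 (0.47 and 0.82). Mapk3, called lower with the block, was also called lower without Control replicate 3 (adjusted p = 0.034).

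Bbc3 and Pmaip1 are known p53 targets, and they were therefore set beside p53 targets outside the family. Of 16 such genes, all tested, 14 were called higher and 0 lower. Their median log2 fold change was 0.67, and the same 14 were called with the block, with DESeq2 and without ICF replicate 3. The list includes genes that the study had picked from these same libraries, so neither its count nor the size of its fold changes is independent evidence. The largest rises were those of Trp53inp1, a p53-induced nuclear protein, from 135 ± 30.1 to 324 ± 91.1 CPM, of the kinase Plk2 from 26.55 ± 1.09 to 60.3 ± 13.8 CPM, and of Phlda3, an inhibitor of Akt, from 39.7 ± 2.02 to 79.8 ± 9.69 CPM (SD, n = 3 each). Their log2 fold changes were 1.26, 1.18 and 1.01 (adjusted p = 0.009, 0.0025 and 0.00083, edgeR), against 0.34 for Pmaip1, 0.31 for Bbc3 and 0.03 for Bax. Over the 14 called genes the log2 fold change ranged from 0.28 to 1.26, and Pmaip1 and Bbc3 lay in the lower part of that range. The call of Trp53inp1 was lost without Control replicate 1 (adjusted p = 0.053) or Control replicate 2 (0.058).

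**Figure D4:**
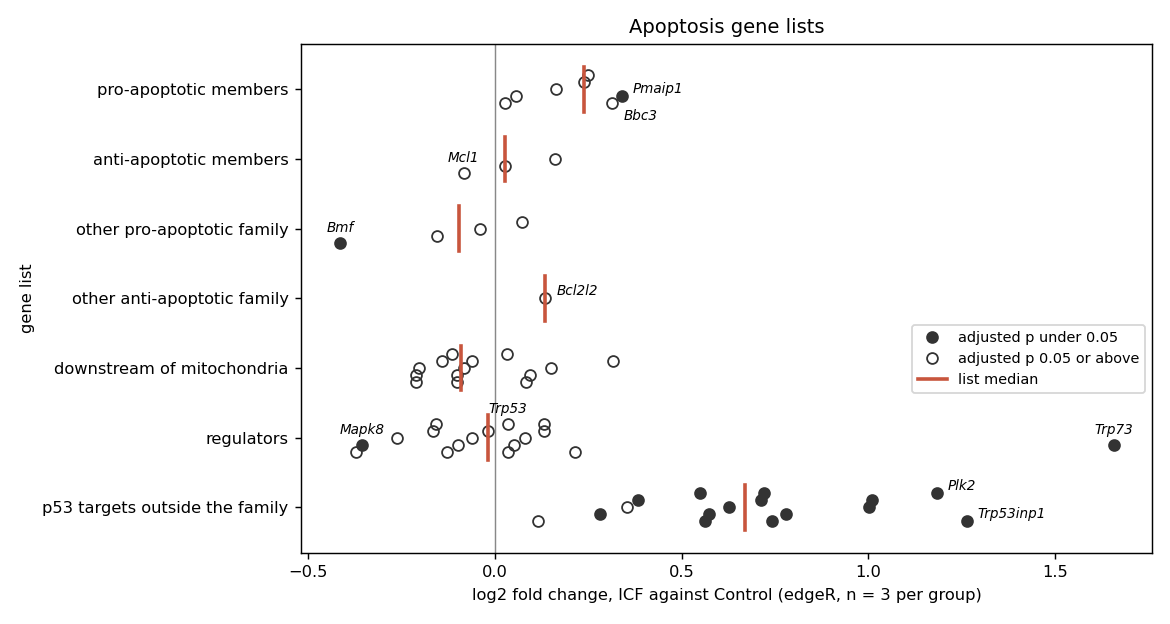
The log2 fold change of ICF against Control (horizontal axis, edgeR, 3 samples per group) of each tested gene in the member lists and the other pathway lists (vertical axis), with filled circles for adjusted p under 0.05 and a bar at the median of each list. The pro-apoptotic members have a median of 0.24 with Pmaip1 filled, the anti-apoptotic members have a median of 0.03 with none filled, and 14 of 16 p53 targets outside the family are filled. The other pro-apoptotic genes of the family have a median of -0.10 with Bmf filled.

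Genes that mark other cell types were measured beside these results. The retinoic acid response genes Cyp26a1, Rarb, Hoxb1, Stra8 and Crabp2 summed to 44.0 to 45.6 CPM in Control and 30.4 to 31.9 CPM with ICF, and 2 of the 4 tested (Cyp26a1 and Stra8) were called lower. Among the pluripotency genes 1 of 8 was called lower (Tdgf1), and among the mesenchymal genes 2 of 6 were called higher (Col1a1 and Col3a1). The fibroblast or feeder genes Thy1, Lum, Dcn, Postn, S100a4 and Fap summed to 14.6 to 18.5 CPM in Control and 14.5 to 19.8 CPM with ICF, with 0 of the 4 tested called and Fap at 3 reads or fewer in every sample. Neural genes summed to 112 to 121 and 106 to 115 CPM (0 of 5 called), endoderm genes to 359 to 376 and 353 to 394 CPM (1 of 6 called lower, Sox17), and blood and immune genes to 21.3 to 22.8 and 19.3 to 28.7 CPM (0 of 4 called, with Hba-a1 at 3 reads or fewer). With the block further marker genes were called, namely Dppa5a (adjusted p = 1.2e-05), Utf1 (0.0011) and Tubb3 (0.0025) lower and Crabp2 (0.025), Twist1 (0.0054), Nes (0.00065) and Gata6 (0.0061) higher (edgeR). Over all genes, edgeR called 14.6% higher and 15.3% lower with the block, and 3.47% and 4.38% without it. Without ICF replicate 3 the calls of Col3a1 (adjusted p = 0.07) and Sox17 (0.071) were lost, whereas those of Tdgf1, Cyp26a1, Stra8 and Col1a1 were kept (edgeR). The call of Col3a1 was lost whichever sample was left out (adjusted p = 0.067 to 0.15), that of Sox17 in 5 of 6 such fits (up to 0.18), and that of Col1a1 without Control replicate 1 (0.082), ICF replicate 1 (0.084) or ICF replicate 2 (0.053). The part of these shifts in the levels of the BCL2 family genes was not tested.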

How the data were processed

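Single-ended sequencing of strand-specific mRNA libraries ran for 75 cycles. HTSeq counts per gene, made by the authors after Trimmomatic filtering and HISAT2 mapping, were deposited as whole numbers, not normalised, for each of the 6 samples. Per the labels the builds GRCm38 and hg38 are named and bcl2fastq 2.19 was used, and the other versions are not given in the sources used here. By default HTSeq does not count a read with several alignments or within overlapping genes, so such genes lose counts. The summary rows that name no gene held 38.1% to 40.3% of the reads of each sample and were left out.

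Gene symbols, positions and exon lengths came from GENCODE M21 on GRCm38, which held 50462 of 50686 identifiers. Counts were tested with the quasi-likelihood test of edgeR 4.0.16 (R 4.3.3), after TMM normalisation and filterByExpr by group, on 16729 genes, without a block, with Benjamini-Hochberg adjustment over all of them. CPM are TMM-normalised, and TPM use the summed exon length. The SE of a log2 fold change reflects the spread of log2 CPM within both groups and was not taken from edgeR.

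The pairing of replicates comes from the donor numbers in the labels. Over 16729 genes deviations from the group mean correlated at 0.15, 0.197 and 0.376 between samples with the same number and at -0.343 to 0.263 between the others. The value of 0.263, between Control replicate 1 and ICF replicate 2, exceeded the same-number values of replicates 1 and 2. A part shared by number was thus seen only for replicate 3. Where the replicate number as a block changes a call of a gene named here, the blocked value is given. Alternatives were DESeq2 1.42.0 with and without the block, RLE factors, filters of at least 1 count in any sample or at least 10 in every sample, division of ICF replicate 3 by 4, and each sample left out in turn. Leaving out replicate 3 of both groups was added after the data were seen.

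The members and the gene lists were chosen with earlier results of these data known. Named are all members, all tested genes of the family, and up to 3 rises and 3 falls past the threshold in each other list, plus Trp53. A few genes of the pathway and marker lists are not reported here, and counts and sums are over the genes that are. Apaf1 and the genes called with the block were named after their values were seen. Stretches of 75 bases shared with another gene made up 11.7% of Bax (Gm45808, same strand), 14.1% of Bak1 (Ggnbp1, opposite strand), 23.7% of Bid (Bcl2l13, opposite strand), 5.96% of Bcl2 (D630008O14Rik, opposite strand) and 0% of the other members. Whether HTSeq was run with strand is not given in the sources used here, so the levels of Bak1, Bid and Bcl2 are uncertain to that extent. Bax can lose reads in its shared stretches under either setting.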

Additional observations from a re-analysis of the deposited data

How the results depend on the processing

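The count of members called higher, 1 in the unblocked edgeR fit, was 2 with DESeq2, 4 with the replicate block in edgeR, 3 with the replicate block in DESeq2, 2 with the filter of at least 1 count in any sample, 5 without replicate 3 of both groups, and 0 to 3 with 1 sample left out. The count lower was 0 in all of these except 1 without replicate 3 of both groups. Over all genes 580 were called higher and 733 lower, against 943 and 1109 with DESeq2, 1465 and 1661 with the replicate block in DESeq2, 2445 and 2561 with the replicate block in edgeR, 2466 and 2627 without replicate 3 of both groups, and 85 to 724 and 215 to 928 with 1 sample left out. The log2 ratio of pro-apoptotic to anti-apoptotic sums stayed between 0.19 and 0.36 with 1 sample left out. The sign turned for Bcl2l11 (-0.0124), Bcl2 (-0.0370) and Bcl2l14 (0.0277) without replicate 3 of both groups, and for Bnip2 with DESeq2 (-0.00126), RLE size factors (-0.00123) and ICF replicate 3 divided by 4 (-0.00959). With 1 sample left out it turned for Bax (range -0.0213 to 0.10), Bcl2l11 (-0.0212 to 0.12), Bcl2l1 (-0.0021 to 0.0606), Bok (-0.12 to 0.0596), Bik (-0.39 to 0.0047), Hrk (-0.0512 to 0.18), Trp53 (-0.0039 to 0.0931), Bcl2l14 (-0.371 to 0.0276) and Bnip2 (-0.0534 to 0.0662), none of which was called. The cause of these changes was not tested, and fewer samples enter the fits that leave samples out. Depth limits Bcl2, Bik and the untested genes of the family most.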

Other observations

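Several genes that carry a BCL2-like name or a related domain lie outside the lists above and were looked up after the other values had been seen. Bnip3l, which encodes a mitophagy receptor with a BH3-like motif, fell from 143 ± 12.2 CPM to 87.85 ± 5.28 CPM (SD, n = 3 each), that is a log2 fold change of -0.70 (SE 0.09, adjusted p = 0.0018, edgeR). Bnip2, which shares part of its name with Bnip3l, had a log2 fold change of 0.00 (adjusted p = 1.0, edgeR). Bcl2l12 and Bcl2l13 had log2 fold changes of -0.07 and -0.11 (adjusted p = 0.65 and 0.39, edgeR). Bcl2l14 had a log2 fold change of -0.22 (adjusted p = 0.62, edgeR) that came from ICF replicate 3, at 1.52 CPM against 2.79 to 2.94 CPM in the other samples, and was 0.03 without that sample. Bcl2l15 did not pass the filter on low counts.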
